A study of Mus musculus with 9 samples.

Results

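Cells keep methyl groups on cytosine through a small set of enzymes, and this account follows the messenger RNAs of 10 of them in mouse embryonic stem cells: the DNA methyltransferase genes Dnmt1, Dnmt3a, Dnmt3b and Dnmt3l, the UHRF genes Uhrf1 and Uhrf2, the TET dioxygenase genes Tet1, Tet2 and Tet3, and the glycosylase gene Tdg. They were taken by name: each symbol was matched through its Ensembl identifier to 1 row of the deposited exon count table, and all 10 were found among its 52550 rows. The comparison was between 4 wild-type libraries (WT) and 5 libraries labelled as a double knockout of KLF2 and KLF4 (DKO), transcription factors of the naive pluripotent state. Both groups were V6.5 embryonic stem cells grown in medium with 15% serum, the cytokine LIF and 2i, a pair of inhibitors that block GSK and MEK, and each library was made from 600 ng of total RNA with a kit that reads the 3' ends of polyadenylated transcripts. Neither the number of clones nor separate cultures behind the replicates are stated in the labels, so p-values measure the spread between these libraries, which may be technical.

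DNMT3A and DNMT3B place new methyl groups on DNA, and DNMT3L, which has no catalytic activity of its own, binds and stimulates them. DNMT1 copies methylation onto the new strand after replication, guided there by UHRF1, which recognises half-methylated sites. TET enzymes oxidise methylated cytosine and TDG excises the later oxidation products, so that base excision repair can restore the unmethylated base. Embryonic stem cells in 2i medium are known for low DNA methylation, low expression of the de novo enzymes and high expression of Tet1 and Tet2.

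Library totals ran from 6035642 to 7098530 counts. Levels are given as CPM, counts scaled to a common library total with TMM factors, which correct for depth and composition. Klf2 and Klf4, the genes named in the knockout, checked the labels first. WT libraries held 3042 to 3297 counts of Klf2 and those labelled DKO 3750 to 4044, and for Klf4 the ranges were 5085 to 6183 and 9385 to 10778. Both were thus higher where the label says knockout (log2 fold changes 0.42 ± 0.04 and 0.91 ± 0.06, SE, edgeR adjusted p = 6.21e-10 and 8.64e-14). The deleted part of either gene is not given, and reads at a 3' end outside it check nothing, so every direction here is that of the libraries labelled DKO. Summed CPM of 10 embryonic stem cell markers was 3097 to 3237 in WT and 3990 to 4187 in the libraries labelled DKO. That of 10 fibroblast markers, which feeder cells would bring, was 5.34 to 8.24 and 3.45 to 8.15, with Lum at 0 everywhere. Summed markers of primed epiblast (38.4 to 48.8 in WT, 27.6 to 42.3 in DKO), primitive endoderm (4.70 to 7.63, 1.26 to 2.99), 2-cell-like cells (1.53 to 2.69, 0.314 to 1.41, Zscan4f at 0) and trophoblast (0.915 to 1.32, 1.65 to 3.61, Tpbpa at 0) stayed low, and neural markers summed to 101 to 122 and 72.2 to 89.5 CPM. The part of any of these cells in the results was not tested, and in bulk RNA fewer cells of a type and less RNA per cell cannot be told apart.

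The largest change among the 10 genes was at Dnmt3l, and Uhrf2 was the one gene to pass the test as higher in the libraries labelled DKO, so the promoters of these 2 are printed first, with that of Dnmt3b, a catalytic partner of Dnmt3l that moved little. They are RefSeq windows of 300 bases on GRCm38.p6, from 250 bases before an annotated start to 50 bases after it, read 5' to 3' on the strand of the gene. Capitals mark every match, on either strand, to CCNCNCCC, a motif of the type that KLF factors bind, and neighbouring matches run together. A 3' library does not tell which of the annotated starts was in use.

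Dnmt3l, start 1, chr10:78042037-78042336, plus strand: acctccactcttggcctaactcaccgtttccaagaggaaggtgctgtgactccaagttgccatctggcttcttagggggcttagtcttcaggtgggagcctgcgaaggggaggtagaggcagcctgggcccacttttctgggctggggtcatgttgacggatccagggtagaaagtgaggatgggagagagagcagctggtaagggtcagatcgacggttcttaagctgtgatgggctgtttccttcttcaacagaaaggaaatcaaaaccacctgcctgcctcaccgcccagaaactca
Dnmt3l, start 2, chr10:78049592-78049891, plus strand: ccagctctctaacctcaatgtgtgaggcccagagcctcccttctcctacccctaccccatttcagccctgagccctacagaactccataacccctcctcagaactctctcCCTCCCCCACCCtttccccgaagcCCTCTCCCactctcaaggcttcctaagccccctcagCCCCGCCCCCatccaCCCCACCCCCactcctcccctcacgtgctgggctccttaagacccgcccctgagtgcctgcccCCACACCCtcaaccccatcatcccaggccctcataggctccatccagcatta
Dnmt3l, start 3, chr10:78055085-78055384, plus strand: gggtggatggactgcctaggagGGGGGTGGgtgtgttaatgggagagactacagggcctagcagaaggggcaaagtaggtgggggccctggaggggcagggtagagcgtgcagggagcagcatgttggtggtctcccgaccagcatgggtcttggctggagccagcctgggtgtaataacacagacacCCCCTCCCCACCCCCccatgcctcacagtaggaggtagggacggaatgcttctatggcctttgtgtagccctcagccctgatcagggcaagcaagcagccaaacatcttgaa
Uhrf2, chr19:30030263-30030562, plus strand: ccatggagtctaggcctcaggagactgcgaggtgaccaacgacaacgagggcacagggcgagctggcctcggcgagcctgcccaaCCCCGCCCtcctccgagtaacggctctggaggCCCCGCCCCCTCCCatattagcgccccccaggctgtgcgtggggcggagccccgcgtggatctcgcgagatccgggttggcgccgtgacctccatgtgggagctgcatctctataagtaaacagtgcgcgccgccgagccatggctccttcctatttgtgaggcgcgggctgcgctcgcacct
Dnmt3b, chr2:153649199-153649498, plus strand: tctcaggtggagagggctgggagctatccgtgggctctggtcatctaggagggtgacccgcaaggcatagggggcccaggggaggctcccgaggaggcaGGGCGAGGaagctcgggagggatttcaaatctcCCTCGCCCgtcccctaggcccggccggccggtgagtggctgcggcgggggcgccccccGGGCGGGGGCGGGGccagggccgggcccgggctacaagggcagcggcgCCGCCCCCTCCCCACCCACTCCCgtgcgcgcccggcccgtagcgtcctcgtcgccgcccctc

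The 3 Dnmt3l windows held 0, 8 and 4 matches to the motif, the Uhrf2 window 4 and the Dnmt3b window 9. Matches may overlap one another, and some contain a GC box (GGGCGG). The motif is common: 49.5% of all 32851 windows of this length held at least 1 match, and 14 of the 17 windows of the 10 genes did. The Dnmt3l windows held 6, 4 and 3 CpG sites, fewer than the 28 at Uhrf2 and 30 at Dnmt3b. The median over all windows was 7, and 47.9%, 38% and 31.4% of windows held no more sites than these 3. The GRHL-type motif AACNGGTT, in 2.09% of all windows, matched only the Tet1 window among those of the 10 genes. A match describes letters and not a bound site.

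All 10 genes had enough reads for the test, and none passed the filter on low counts through 1 group alone. Of the 10, 1 was called higher and 5 lower in the libraries labelled DKO at an adjusted p under 0.05 (edgeR, quasi-likelihood, Benjamini-Hochberg adjustment over 11893 genes). Over all genes tested 23.9% were called higher and 24.0% lower, so calls were common and a call alone does not set these genes apart. The CPM ranges of the 2 groups did not overlap for 5 of the 10 genes, and did not overlap for 37.4% of all genes. The median log2 fold change was -0.13 over the 10 genes and 0.01 over all.

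**Figure D1:**
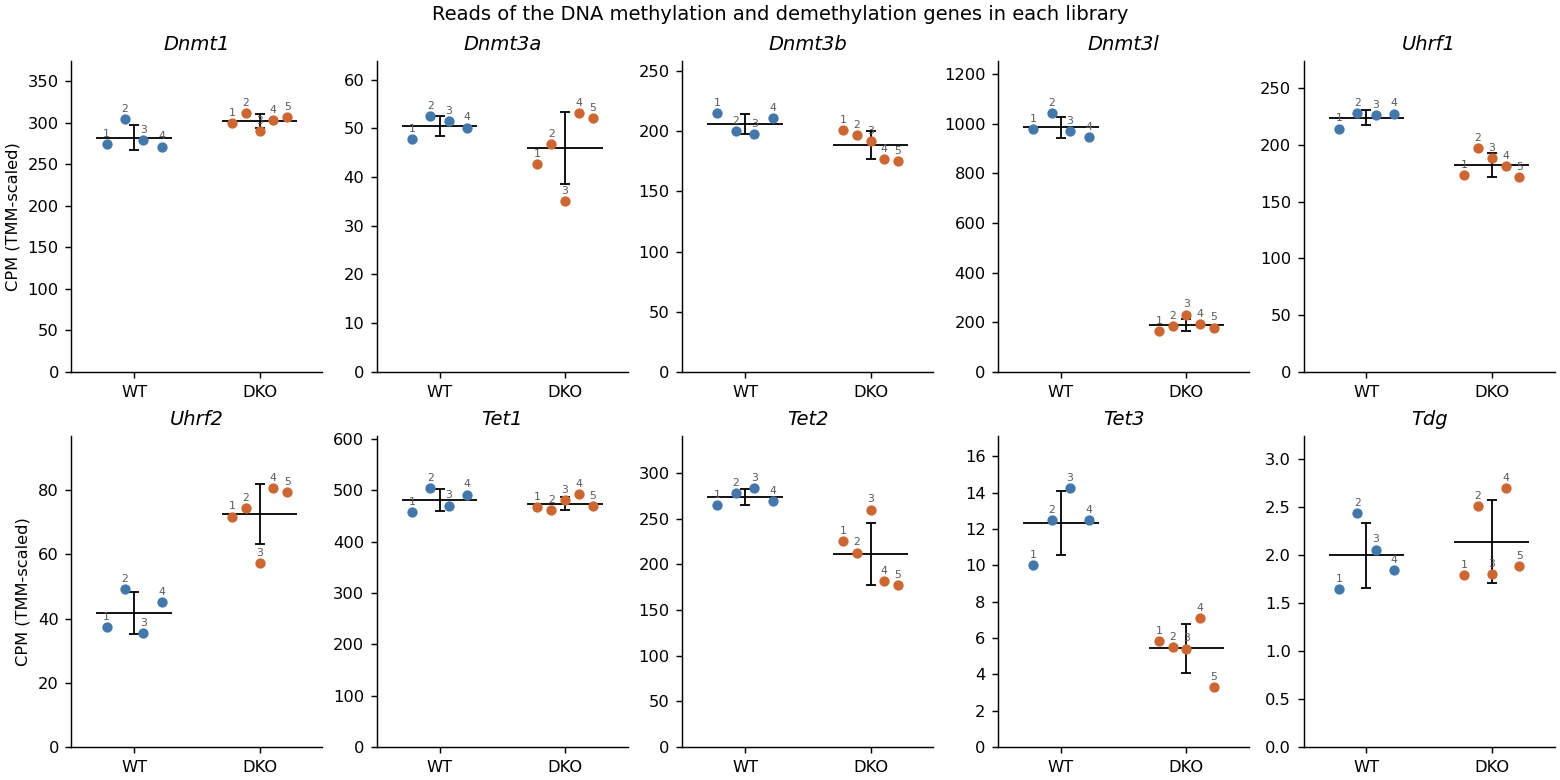
Each panel shows 1 gene, with TMM-scaled CPM on a vertical axis that starts at 0, 1 point per library (numbered by replicate), and the mean ± SD of WT (blue, n = 4) and of the libraries labelled DKO (orange, n = 5). Dnmt3l stands between 948 and 1044 CPM in the WT libraries and between 164 and 231 in the others, Uhrf2 rises and Tet3 falls without overlap, and Dnmt1, Tet1 and Tdg overlap.

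Dnmt3l (ENSMUSG00000000730, chromosome 10, 78041947 to 78063622, plus strand) had the largest change of the 10: its level fell by 80.8% in the libraries labelled DKO. It stood at 979, 1044, 972 and 948 CPM in WT 1 to 4 and at 164, 185, 231, 191 and 178 CPM in DKO 1 to 5. Every WT library was more than 4 times as high as the highest library labelled DKO, which was DKO 3. The means were 986 ± 41.1 and 189.8 ± 25 CPM (SD, n = 4 and 5), a fitted fold of 5.2 between WT and DKO (log2 fold change -2.38 ± 0.07, SE, edgeR adjusted p = 3.24e-16). Among the 11893 genes tested, 1.24% had a log2 fold change this low or lower. Counts were high, 6545 to 6846 per WT library and 1096 to 1405 per library labelled DKO, and the fold change stayed between -2.45 and -2.33 in all 19 alternative fits.

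Dnmt3a and Dnmt3b, the catalytic partners of Dnmt3l, did not share a fall of that size. Dnmt3b (ENSMUSG00000027478, chromosome 2, 153649450 to 153687730, plus strand) read 215, 199.9, 198 and 211 CPM in WT 1 to 4 and 201, 197, 192, 177 and 175 CPM in DKO 1 to 5. DKO 4 and 5 were the lowest, and DKO 1 lay above the WT 2 and WT 3 libraries. The call was narrow (206 ± 8.59 and 188 ± 11.6 CPM, log2 fold change -0.13 ± 0.05, edgeR adjusted p = 0.0449). It was lost in 8 of 19 alternative fits, among them without WT 1 (edgeR adjusted p = 0.132), WT 4 (0.0973), DKO 4 (0.124) or DKO 5 (0.131), and by DESeq2 (adjusted p = 0.0549).

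Dnmt3a (ENSMUSG00000020661, chromosome 12, 3806007 to 3914443, plus strand) was not called. It had 47.7, 52.5, 51.4 and 50.1 CPM in WT 1 to 4 and 42.6, 46.7, 35.1, 53.2 and 52.1 CPM in DKO 1 to 5. DKO 3 was the lowest of all libraries and DKO 4 the highest, so that the spread within the libraries labelled DKO exceeded the difference between the groups. The log2 fold change was -0.13 ± 0.09 (edgeR adjusted p = 0.228), and 2 SE on either side reached from -0.32 to 0.05. The gene has promoters that give a long and a short protein, and counts per gene do not separate them.

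Uhrf1 and Uhrf2, which are paralogues, moved in opposite directions. Uhrf1 (ENSMUSG00000001228, chromosome 17, 56303321 to 56323486, plus strand), the partner of DNMT1, had 215, 228, 226 and 228 CPM in WT 1 to 4 and 173, 197, 188, 182 and 172 CPM in DKO 1 to 5. All 5 libraries labelled DKO lay under all 4 WT libraries. The means were 224 ± 6.48 and 182 ± 10.5 CPM (SD, n = 4 and 5), a decrease of a modest size (log2 fold change -0.30 ± 0.05, edgeR adjusted p = 1.20e-05).

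Uhrf2 (ENSMUSG00000024817, chromosome 19, 30030513 to 30093722, plus strand), which does not replace UHRF1 in maintaining methylation, had 37.3, 49.3, 35.6 and 45.2 CPM in WT 1 to 4. It had 71.8, 74.4, 57.3, 80.7 and 79.3 CPM in DKO 1 to 5, each above every WT library, with DKO 3 the nearest to WT. The means were 41.8 ± 6.49 and 72.7 ± 9.34 CPM, a fitted 1.74-fold rise (log2 fold change 0.80 ± 0.10, edgeR adjusted p = 6.47e-07).

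Dnmt1 (ENSMUSG00000004099, chromosome 9, 20907209 to 20959888, minus strand), the maintenance methyltransferase, was not called. It stood at 274, 304, 279 and 271 CPM in WT 1 to 4 and at 299.7, 312, 290.0, 303 and 307 CPM in DKO 1 to 5. WT 2 lay among the libraries labelled DKO and the other WT libraries lay below them. The log2 fold change was 0.10 ± 0.05 (edgeR adjusted p = 0.0858), and it was called higher without WT 2 (edgeR adjusted p = 0.036) and without DKO 3 (0.0486).

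**Figure D2:**
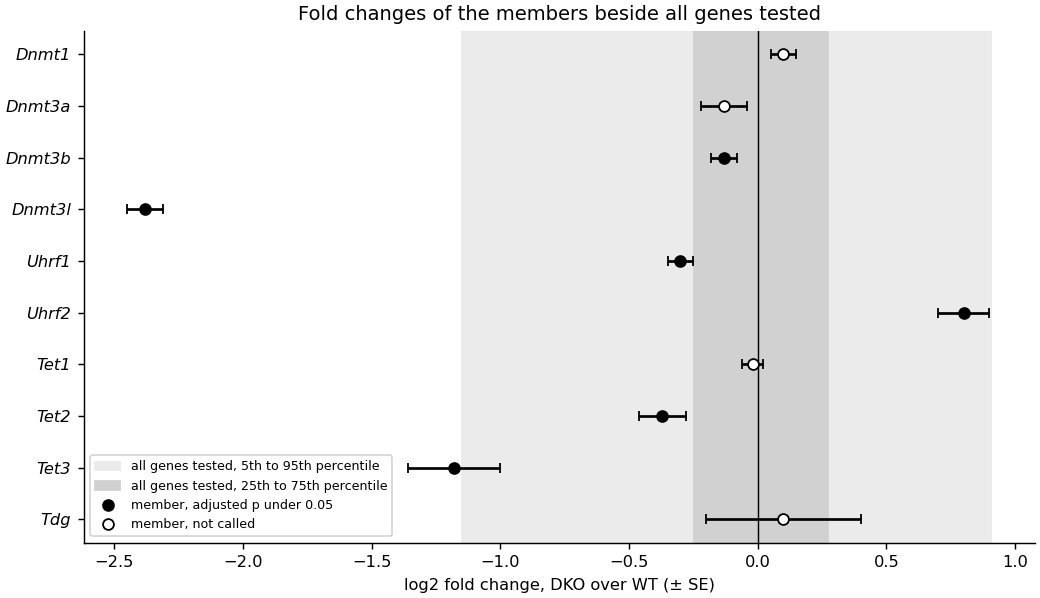
The horizontal axis gives the log2 fold change of the libraries labelled DKO over WT, with each gene a point ± SE, filled where the adjusted p was under 0.05, over grey bands that hold the middle 50% and the middle 90% of all genes tested. Dnmt3l (-2.38) and Tet3 (-1.18) lie left of the wider band, which runs from -1.15 to 0.91, Uhrf2 (0.80) lies near its right edge, and Dnmt1, Dnmt3a, Dnmt3b, Tet1 and Tdg lie within the narrow band.

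Of the TET genes, Tet2 and Tet3 fell and Tet1 was not called. Tet1 (ENSMUSG00000047146, chromosome 10, 62804570 to 62908996, minus strand), the TET gene best known in pluripotent cells, had 458, 505, 470.1 and 491 CPM in WT 1 to 4 and 467, 461, 481, 493 and 469.7 CPM in DKO 1 to 5. The groups covered nearly the same range. With 2922 to 3460 counts per library the estimate was tight (log2 fold change -0.02 ± 0.04, edgeR adjusted p = 0.734), and 2 SE on either side reached from -0.11 to 0.07. Gm48353, an unclassified transcript annotated inside Tet1 on the same strand, held 195 unscaled counts over 4 WT libraries and 363 over the 5 labelled DKO. Reads there may be shared or lost.

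Tet2 (ENSMUSG00000040943, chromosome 3, 133463679 to 133545139, minus strand), an oxidase without the DNA-binding CXXC domain of its relatives, had 265, 278, 284 and 269 CPM in WT 1 to 4. It had 225, 213, 260.1, 182 and 177 CPM in DKO 1 to 5. The groups were apart only by the small gap between DKO 3 and WT 1, and DKO 4 and 5 were the lowest. The means were 274 ± 8.44 and 211 ± 34.0 CPM (log2 fold change -0.37 ± 0.09, edgeR adjusted p = 0.00587), and the call held in all 19 alternative fits.

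Tet3 (ENSMUSG00000034832, chromosome 6, 83362373 to 83459084, minus strand), known from the oocyte and zygote, was scarce, with 21 to 97 counts per library. It had 10.02, 12.5, 14.3 and 12.5 CPM in WT 1 to 4 and 5.83, 5.48, 5.42, 7.09 and 3.30 CPM in DKO 1 to 5. Each library labelled DKO lay under each WT library, DKO 5 lowest. The means were 12.3 ± 1.74 and 5.42 ± 1.37 CPM (log2 fold change -1.18 ± 0.18, edgeR adjusted p = 1e-06).

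Tdg (ENSMUSG00000034674, chromosome 10, 82629828 to 82650799, plus strand) was near the limit of what these libraries count, with 11 to 16 reads in each. It had 1.65, 2.44, 2.06 and 1.85 CPM in WT 1 to 4 and 1.79, 2.51, 1.81, 2.70 and 1.89 CPM in DKO 1 to 5. A difference was not detectable at this depth (log2 fold change 0.10 ± 0.30, edgeR adjusted p = 0.821), and 2 SE on either side reached from -0.51 to 0.70. Over 367 bases the 3' end of Tdg overlaps Glt8d2, annotated on the other strand, which held 6 counts in all 9 libraries, and Tdg-ps, a processed copy identical over 122 bases of that end, held 4. Since the strand setting of the counting is not given, reads from this end may have been left out for both genes, and the level of Tdg is uncertain. Among the last 600 bases of the longest coding transcripts of the other 9 genes, no stretch of 50 bases or more with at least 90% identity to another gene was found.

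DKO 3 and the pair DKO 4 and 5 stood at opposite ends of the libraries labelled DKO for several of these genes. DKO 3 had the highest Dnmt3l and Tet2 and the lowest Uhrf2 and Dnmt3a of the 5, and DKO 4 and 5 had the lowest Tet2 and Dnmt3b and the highest Uhrf2 and Dnmt3a. Without DKO 3 the fall of Tet2 was larger (log2 fold change -0.46) and the rise of Uhrf2 too (0.87).

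Ratios between 2 of the genes within a library do not depend on library scaling. They set the changes given above against each other and are not results independent of them. Of 6 ratios, 5 shifted between the groups and 1 did not (2-sided exact permutation tests over all divisions of the 9 libraries into 4 and 5, Benjamini-Hochberg over the 6). The smallest p this design can give is 0.00794. The log2 ratio of Dnmt3l to Dnmt3b fell by 2.25, from 2.26 ± 0.10 to 0.00 ± 0.21 (SD, n = 4 and 5), and that of Dnmt3l to Dnmt3a fell by 2.23 (exact permutation p = 0.00794 and adjusted p = 0.0119 for each). That of Dnmt3a to Dnmt3b did not differ beyond its spread, at -2.02 ± 0.12 for WT and -2.04 ± 0.31 for DKO, a difference of -0.02 (exact permutation p = 0.921, adjusted p = 0.921). These are ratios of reads, and their shift between groups is read here, not their size.

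The balance of the maintenance pair shifted as well. The log2 ratio of Uhrf1 to Dnmt1 fell by 0.40 (-0.33 ± 0.07 to -0.73 ± 0.09) and that of Uhrf1 to Uhrf2 fell by 1.09 (2.43 ± 0.20 to 1.33 ± 0.24), without overlap between the groups (exact permutation p = 0.00794 and adjusted p = 0.0119 for each). The log2 ratio of Tet1 to Tet2 rose by 0.37, from 0.81 ± 0.07 to 1.18 ± 0.24 (exact permutation p = 0.0159, adjusted p = 0.019). Its lowest value among the libraries labelled DKO, 0.89 in DKO 3, was just above the highest WT value, 0.87. Without any one of the 4 WT libraries its adjusted p was 0.0643 (exact permutation).

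**Figure D3:**
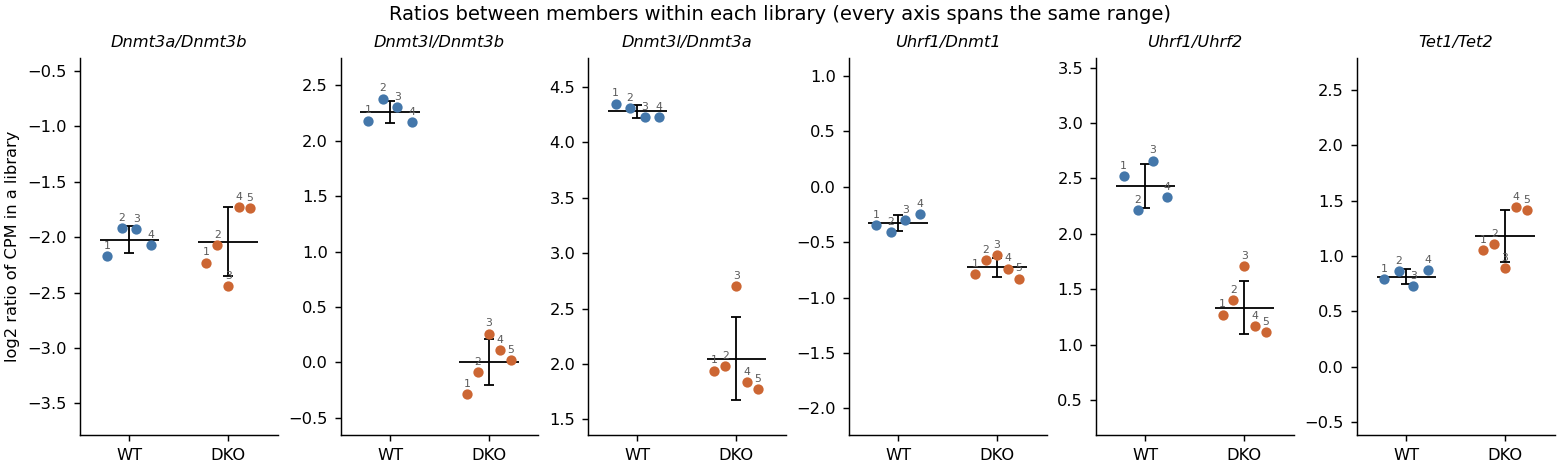
Each panel gives the log2 ratio of CPM of 2 genes in every library (points, numbered by replicate) with the mean ± SD of WT (blue) and of the libraries labelled DKO (orange), and each vertical axis spans 3.4 log2 units around its own middle. The 2 ratios with Dnmt3l drop by over 2 units, the 2 with Uhrf1 by 0.40 and 1.09, Tet1/Tet2 rises by 0.37, and Dnmt3a/Dnmt3b stays level while its spread widens in the libraries labelled DKO.

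Around these enzymes, 7 lists of genes were counted in the same fit, beside the 23.9% higher and 24.0% lower of all genes. A place in a list does not mean that the product works with these enzymes. Of 21 partners and regulators of the DNA methyltransferases and UHRF1, 9 were higher and 6 lower, with a median log2 fold change of 0.11. The largest rise was of Dppa3, a maternal factor that binds UHRF1 and keeps it from chromatin, from 8.78 ± 2.24 to 231 ± 63.7 CPM (edgeR log2 fold change 4.71 ± 0.35, adjusted p = 1.22e-05). Zfp281 (0.45), a zinc finger factor of pluripotent cells, and Cdca7l (0.78) also rose. Hells, the remodeller that opens DNA to methylation, fell from 934 ± 57.3 to 758 ± 45.4 CPM (-0.30), as did Lig1 (-0.47), the replication ligase that UHRF1 binds. Cdca7 (-0.02), which works with HELLS, and the histone methyltransferase gene Nsd1 (0.05) were not called.

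Of 12 genes for readers of methylated CpG or relatives of such readers, 3 were higher and 0 lower by edgeR, with a median of 0.21. A place in this list does not mean that the protein binds methylated CpG. The count of lower genes was also 0 at an unadjusted p under 0.05, by DESeq2 and by limma. Of the 12, 1 passed the filter on low counts through the libraries labelled DKO alone, so it could hardly be lower. Without it 3 of 11 were higher and 0 lower, with a median of 0.21. The genes that rose were Mbd4 (log2 fold change 0.28), which also is a glycosylase, Mbd6 (0.23) and Zbtb33 (0.69), which encodes Kaiso. Mbd3 (0.08) and Zfp445 (0.08) were not called. Of 13 genes listed as TET cofactors and partners, 12 were found and 10 tested, with 3 higher and 2 lower. Ogt (0.26), whose product adds a sugar to proteins and binds TETs, Cxxc5 (0.43) and Slc23a2 (0.54), a carrier of vitamin C, which TET activity depends on, rose. Sin3b (-0.38), on chromosome 8, and Vdac1 (-0.22) fell, which without that chromosome leaves 1 lower, and Sin3a (-0.04) and Hcfc1 (-0.01) were not called.

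In the base excision repair list, 3 of 16 tested genes were higher and 5 lower, with a median of -0.01. Gadd45g passed the filter on low counts through the libraries labelled DKO alone and had to be higher, and without it 2 of 15 were higher and 5 lower, with a median of -0.07. The Gadd45 genes, stress-induced factors tied to demethylation, went both ways: Gadd45a rose from 5.17 ± 0.356 to 16.6 ± 1.98 CPM (log2 fold change 1.68) and Gadd45b fell from 31.6 ± 0.538 to 14.1 ± 1.15 (-1.16), while Gadd45g stood at 0.995 ± 0.291 in WT and 8.11 ± 0.953 for DKO. Neil2 (-1.31), a glycosylase, and Parp1 (-0.26), a sensor of strand breaks, fell, and Apex1 (0.04) and Fen1 (0.05) were not called. Gadd45a, like Dppa3 above and Mthfd2 below, lies on chromosome 6, and without chromosomes 6 and 8, a count added after the values were seen, 1 of 13 repair genes, Gadd45g, was higher and 5 lower. Of 28 tested genes that supply the methyl donor or 2-oxoglutarate, the cosubstrate of the TETs, 5 were higher and 7 lower. One of the lower calls, Gnmt, passed the filter through WT alone, and without it 6 of 27 were lower. Idh2, a mitochondrial enzyme that makes 2-oxoglutarate, rose from 240.1 ± 15.8 to 389 ± 19.7 CPM (0.70) while its cytosolic relative Idh1 fell (-0.42). Gldc (-1.24), Mthfd2 (-0.85) and Shmt2 (-0.47), of mitochondrial one-carbon metabolism, fell as well, and Tdh (0.01) and Glud1 (0.01) were not called.

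Replication genes were counted because Uhrf1 and Dnmt1 are known to rise in S phase. Of 32 tested, 2 were higher and 14 lower, with a median log2 fold change of -0.13, the largest changes being in Gins2 (-1.01), Mcm5 (-0.79) and Cdt1 (-0.55), all on chromosome 8. Mcm2 (-0.43), on chromosome 6, fell and Gins4 (0.47), on chromosome 8, rose. Mcm7 (-0.08) and Rfc5 (-0.01) were not called. Chromosome 8 as a whole had a median of -0.19, and by the same count without chromosomes 6 and 8, 1 of 26 replication genes was higher and 9 lower, with a median of -0.09. The fall of Uhrf1 (-0.30) thus stood beside a lower level of part of this list, and whether the 2 are linked was not tested.

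Of 22 germline genes whose promoters are known to be methylated outside the germ line, 12 had enough reads, of which 0 were higher and 11 lower, with a median of -1.10, and Ddx4 (0.13, edgeR adjusted p = 0.686) was not called. The count of higher genes was also 0 at an unadjusted p under 0.05, by DESeq2 and by limma. Of these, 4 (Piwil2, Stra8, Sycp1 and Hormad1) passed the filter through WT alone and had to be lower. Without them 7 of 8 were lower, with a median of -0.95. Stra8 and Stk31 lie on chromosome 6. Without chromosomes 6 and 8, a count added after the values were seen, 8 of 9 were lower, with a median of -1.17. That count still holds Piwil2, Sycp1 and Hormad1. Tex19.1 fell from 362 ± 42.5 to 90.2 ± 9.59 CPM (log2 fold change -2.0) and Rpl10l from 69.0 ± 7.89 to 30.8 ± 3.86 (-1.17), and Stk31 fell from 10.1 ± 1.2 to 4.96 ± 1.29 (-1.03). DNA methylation itself was not measured in these libraries.

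**Figure D4:**
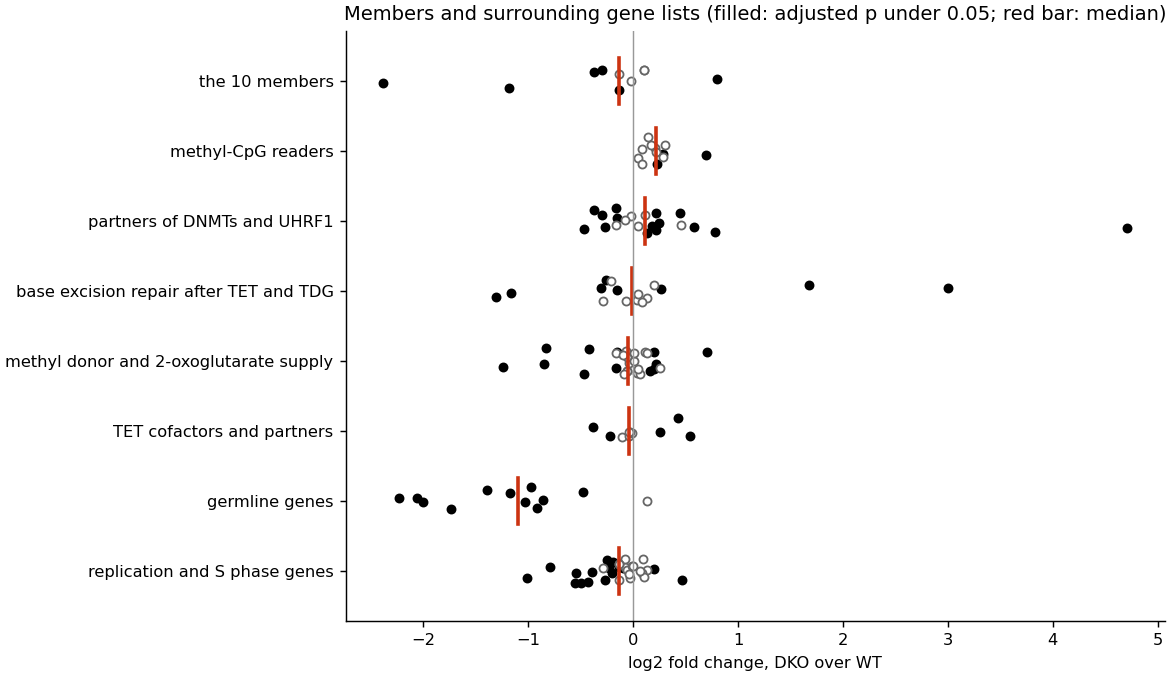
Each row is a gene list, each point a tested gene at its log2 fold change (libraries labelled DKO over WT), filled where the adjusted p was under 0.05, with a red bar at the median. The 10 enzymes spread from -2.38 to 0.80 around a median of -0.13, the germline genes centre on -1.10 (-0.95 without the 4 that passed the filter through WT alone), and the other lists have medians between -0.13 and 0.21.

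Medians of the genes around each enzyme gene were set beside its change, against a median of -0.19 over chromosome 8, 0.07 over chromosome 6 and 0.01 over the rest. The 152 genes tested within 5 Mb of Dnmt3l had a median log2 fold change of -0.09, with 21 higher and 48 lower. The 29 around Uhrf2 had 0.26, with 12 higher and 3 lower, and the 70 around Tet3 had -0.25, with 4 higher and 37 lower. The change of Tet3 therefore had the direction of its neighbourhood and a larger size, and so had that of Uhrf2. For the other 7 genes the median of the neighbours was between -0.10 and 0.07.

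Next to Dnmt3l, Aire, the autoimmune regulator gene on the opposite strand, also fell, a gene singled out after its values were seen. Its 5' end overlaps that of Dnmt3l by 1664 bases in the annotation. Aire went from 9.30 ± 2.32 to 0.979 ± 0.231 CPM, or from 251 counts over 4 libraries to 31 over 5 (log2 fold change -3.21 ± 0.26, edgeR adjusted p = 1.86e-12). Reads within the overlap cannot be told apart unless the counting used strand.

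**Figure D5:**
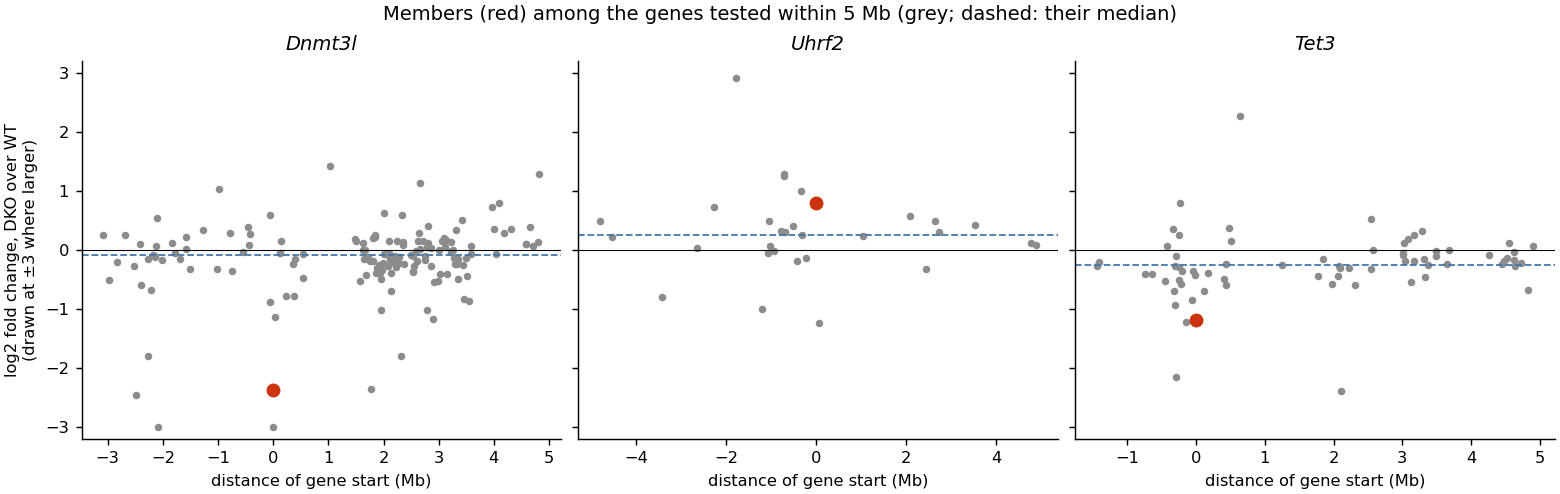
The horizontal axis is the distance in Mb of each tested gene's start from that of the named gene (red), and the vertical axis its log2 fold change, drawn at 3 or -3 where larger. Dnmt3l lies far below the median of its neighbours (dashed, -0.09), Uhrf2 above a median of 0.26 and Tet3 below one of -0.25.

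Among 8089 other genes of at least 10 CPM, the 4 whose log2 CPM followed Dnmt3l most closely over the 9 libraries were Ccnd1 (Pearson r = 0.999), which encodes cyclin D1, Slc7a5 (0.998), Eprn (0.998) and Klhdc4 (0.998). Those most like Uhrf2 were Ttc28 (0.987), Cd24a (0.983), Vps29 (0.980) and Acrbp (0.979). Such values mostly mark a clear step between the 2 groups, so they are given as a description. With each group's mean taken out, Ccnd1 (0.960) was again among the 4 closest to Dnmt3l, with Usp16 (0.971), Zdbf2 (0.957) and Lockd (0.955). The closest to Uhrf2 were then Tbl1x (0.987), Slc1a4 (0.978), Pdpn (0.965) and Psat1 (0.948). These too were picked as the highest of 8089 values over 9 libraries and were not tested. Not all of them shared the group change. The log2 fold changes were -0.28 for Usp16, -3.81 for Ccnd1, 0.39 for Zdbf2 and 0.09 for Lockd. For Tbl1x, Slc1a4, Pdpn and Psat1 they were 0.10, 0.30, -0.48 and 0.16.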

How the data were processed

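RNA was sequenced from 9 libraries with a 3' end kit. The authors deposited whole-number exon counts per Ensembl gene, not normalized. The submitters' processing notes name cutadapt, STAR, featureCounts and DESeq2 and the mm10 build, with no version or role. Not given in the sources used here are the annotation, the strand setting and how multi-mapped reads were treated. Of 52550 identifiers 52403 matched GENCODE M21, which gave symbols and positions on the same build.

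From the counts, genes were filtered with filterByExpr, scaled by TMM and tested with the robust quasi-likelihood test of edgeR 4.0.16 (R 4.3.3), DKO over WT, with no covariate. P-values were adjusted by Benjamini-Hochberg over 11893 genes and called under 0.05. SE is the fold change over the root of its F statistic. CPM uses TMM-scaled totals, and ratios use log2 CPM with a prior count of 2. Alternatives used limma 3.58.1 and DESeq2 1.42.0, other scalings and filters, a replicate block, and each library left out. The 16 pairs of libraries within a group had a chi-square per degree of freedom of 2.22 to 4.98, more than counting error alone gives. Whether any pair was a single library sequenced again was not tested, since no such pair was at hand for comparison. Whether libraries came from the same RNA or culture cannot be told from these values, since preparation adds spread as well. Among libraries labelled DKO, 4 and 5 were the closest pair (2.36) and 3 and 4 the furthest apart (4.98). Totals are counts of reads without molecular identifiers, so their precision covers counting error only.

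The 10 genes and the 7 lists were chosen with earlier results of these data known. All 10 were named. Of each list the 5 called genes ranking first by adjusted p, and 2 uncalled genes of at least 50 CPM, could be named. Gnmt, Ddx4, Sycp1, Hormad1, Polb and Aire were named after their values were seen. Genes of like pattern were the 4 with the highest Pearson r to the largest rise and the largest fall. No gene list was tested as a set.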

Additional observations from a re-analysis of the deposited data

Results flagged for a closer look

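Of 20 groups of CPM values (10 genes, 2 groups each), 1 held a library far from the others. Uhrf1 in WT 1 was 215 CPM, against 226 to 228 in the other 3 WT libraries, and this gap was 0.844 of the group's range, past Dixon's 95% limit for 4 samples. Chance gives about 1 such case in 20 groups. WT 1 was still above every library labelled DKO, and without it the log2 fold change of Uhrf1 was -0.32.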

How the results depend on the processing

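Over the 19 alternative fits, Dnmt3l, Uhrf1, Uhrf2, Tet2 and Tet3 kept their direction and their call, and Dnmt3a and Tet1 were called in none. Tdg was called in none of its 18 fits, since the filter of 5 CPM in 4 libraries removed it. Dnmt3b was also lost with library totals only (log2 fold change -0.12, edgeR adjusted p = 0.0664), with no filter (0.071) and with the replicate block (0.101). Same-numbered libraries are not said to be paired, and their deviations correlated at -0.026 to 0.180 over 4 pairs. With the replicate block the log2 fold changes were -2.36 for Dnmt3l and -1.04 for Tet3, and it changed no call of these genes but that of Dnmt3b. Leaving out 1 library gave 1 to 2 of the 10 genes called higher. It gave 3 to 5 higher and 4 to 7 lower of the methyl donor list, and 1 to 2 higher of the replication list. The libraries were WT 3 or DKO 5 for the 3 higher and DKO 4 for the 4 lower of the methyl donor list, and WT 2, WT 3, DKO 1, DKO 4 or DKO 5 for the replication list. The Tet1 to Tet2 difference ran from 0.30 to 0.44 with 1 library left out. Without chromosomes 6 and 8, chosen after the values were seen, 1 of 13 repair genes and 1 of 26 replication genes were higher. That repair gene, Gadd45g, passed the filter through the libraries labelled DKO alone and had to be higher. Of 9 genes listed as TET cofactors and partners 1 was lower, and of the replication genes 9 were. Of 11 readers 2 were higher and 0 lower, and of 19 partners and regulators 7 were higher and 6 lower. Of 25 methyl donor genes 5 were higher and 5 lower, and of 9 germline genes 0 were higher and 8 lower. The genes left out held calls themselves. Among them Gadd45a, Dppa3 and Mbd4 on chromosome 6 and Polb and Gins4 on chromosome 8 were higher. On chromosome 8, 4 replication genes and Sin3b were lower. On chromosome 6, 1 replication gene, 2 methyl donor genes and 3 germline genes were lower. Tdg (11 to 16 counts per library) and Tet3 (21 to 97) had the fewest reads of the 10 genes, and for Tdg low depth and reads left out at its overlapped 3' end cannot be told apart.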
